A study of Mus musculus with 6 samples.

Results

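The genes described here make, cut or bind hyaluronan: the hyaluronan synthases Has1, Has2 and Has3, the hyaluronidases Hyal1, Hyal2 and Hyal3, and the hyaluronan receptor Cd44. Of these 7 genes, 6 were measured, each by 1 probe set, among 909 named genes on the array, and they were chosen by name through the RefSeq accession in the probe set identifier. Hyal3 matched no named probe set and was not analysed here. The samples were total RNA from livers of male mice with insulin-deficient diabetes and of healthy male wildtype mice. Each group had 3 samples, hybridised 1 per array to an Affymetrix array of 1246 probe sets. The study asked whether enzymes of glycosaminoglycans, the long sugar chains of the cell surface and matrix, are expressed less in the diabetic liver, with plasma lipid turnover in mind. The labels name neither the strain, the age, the duration of diabetes nor how it was induced.

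Hyaluronan is a glycosaminoglycan that carries no sulfate and no core protein. The Has enzymes sit in the plasma membrane and join UDP-glucuronate and UDP-N-acetylglucosamine into a chain that they push out of the cell. Hyal2 is held on the cell surface by a GPI anchor and cuts long chains into fragments, and Hyal1 cuts these further in the lysosome and also circulates in plasma. The liver clears hyaluronan from blood through its sinusoidal endothelial cells, and Cd44 is a widespread receptor for it on leukocytes, macrophages and many other cells.

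Values are log2 probe-set values made by the authors with RMA, whose array medians lay between 4.93 and 5.06, and differences are diabetic minus wildtype. All 7 measured hepatocyte markers had mean values between 8.99 and 12.32, above the median probe set. Wildtype 2 stood apart from every other array by over 0.5 for 40 probe sets and diabetic 3 for 21. Detection calls were not used, and precision is limited by there being 6 arrays. Because the probes of different genes bind with different strength, the rank of a probe set on the array does not rank transcripts between genes. Separate animals are not named for the single arrays, and where arrays shared one, p-values would reflect technical spread.

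In the annotation used for names, the hyaluronidase genes are neighbours on chromosome 9, in the order Hyal2, Hyal1, Naa80 and Hyal3, and the Hyal1 span overlaps those of Naa80 and Hyal3. The suffix of the Hyal1 probe set marks probes that match several transcripts of the gene, of which RefSeq lists 2 curated ones. The promoters of Hyal1 and Hyal2 are shown because both genes were measured and shared their highest and lowest arrays. Each is the 250 bases before the gene's start from RefSeq (GRCm38.p6), both on the plus strand, with motif matches on either strand in capitals. Hyal1 lies at chr9:107576700-107576949 and Hyal2 at chr9:107568913-107569162.
Hyal1: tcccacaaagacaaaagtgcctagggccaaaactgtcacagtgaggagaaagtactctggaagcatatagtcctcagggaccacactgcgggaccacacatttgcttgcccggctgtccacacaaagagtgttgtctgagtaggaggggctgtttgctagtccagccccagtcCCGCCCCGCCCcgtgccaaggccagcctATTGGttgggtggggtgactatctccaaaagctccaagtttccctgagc
Hyal2: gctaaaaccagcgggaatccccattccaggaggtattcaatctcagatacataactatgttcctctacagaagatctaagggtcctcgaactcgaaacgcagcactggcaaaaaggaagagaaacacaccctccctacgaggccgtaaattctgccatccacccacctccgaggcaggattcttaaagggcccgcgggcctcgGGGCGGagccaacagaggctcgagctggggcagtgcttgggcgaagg
The motifs searched were the GC box GGGCGG, the CCAAT box CCAAT, the TATA box TATAAA and the FOXO core TGTTTAC. The Hyal1 window held 2 overlapping GC boxes, starting 77 and 72 bases before the start, and 1 CCAAT box, starting 49 bases before it and read on the minus strand (ATTGG as printed). The Hyal2 window held 1 GC box, starting 47 bases before the start. Neither window held TATAAA or TGTTTAC. Over the same 250-base window of 27025 promoters, 32.9% held a GC box, 34.5% a CCAAT box, 12.97% a TATA box and 3.09% the FOXO core. GC content was 56.0% in Hyal1 and 55.6% in Hyal2, against a median of 52.0% over those windows, and CG dinucleotides numbered 5 in Hyal1 and 13 in Hyal2, against a median of 6.

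On the array, the probe sets of Has2, Has3 and Cd44 were dim, that of Has1 lay near the middle, and those of Hyal1 and Hyal2 were bright. Has2 and Has3 had mean values of 3.15 and 3.87, below every array's median on all 6 arrays, and Has1 had 5.24, just above it on all 6. Hyal1 and Hyal2 had 9.12 and 8.39, with 89.2% to 94.5% and 87.2% to 89.7% of the array's probe sets below them. Cd44 had 3.58, below the median on all 6 arrays. Of the 6 genes, 3 (Has2, Has3 and Cd44) lay in the dimmest 25% of probe sets, with means under 3.89.

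Spread between arrays also differed among them. The SD over all 6 arrays was 0.46 for Hyal1 and 0.38 for Cd44, at percentiles 94.4 and 91.0 of the SDs of all probe sets. It was 0.14 for Hyal2, close to the median of 0.14 over all probe sets, and below the median of 0.24 over the 191 probe sets with means above 8. The synthases varied least. Has1 had 0.080, against the median of 0.14 over all probe sets. Has2 had 0.076 and Has3 0.055, against a median of 0.10 in the dimmest 25% of probe sets.

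**Figure D1:**
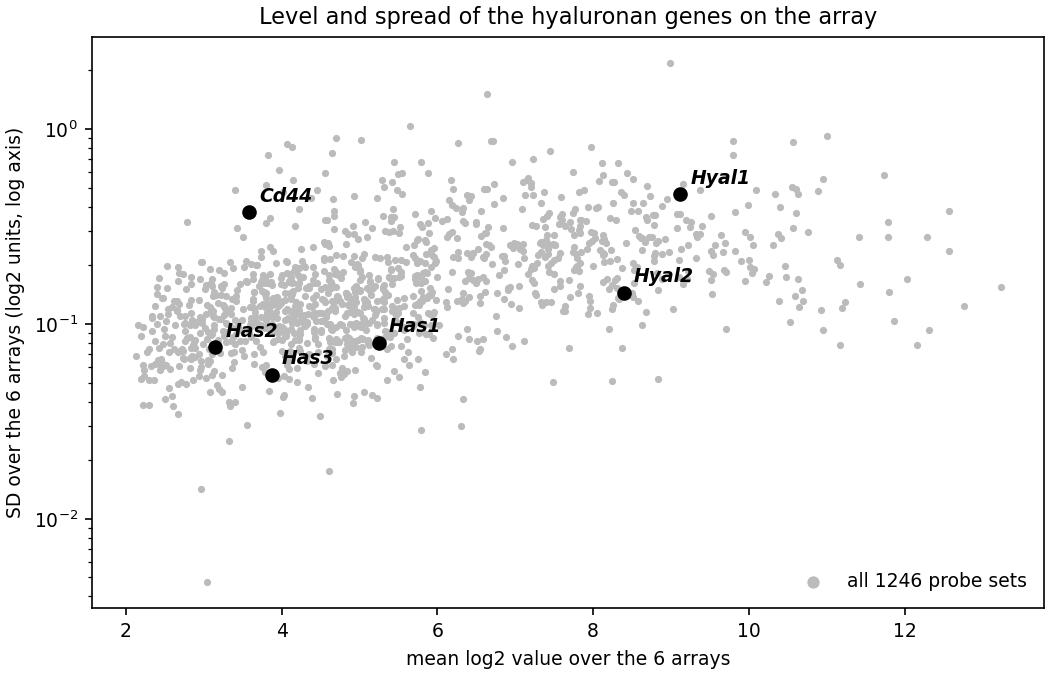
Mean log2 value over the 6 arrays (x axis) against the SD over the same arrays in log2 units (y axis, log scale) for all 1246 probe sets (grey) and the 6 hyaluronan genes (black). Hyal1 and Cd44 lie high in the cloud with SDs of 0.46 and 0.38, while Has1, Has2 and Has3 lie low, at 0.080, 0.076 and 0.055.

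None of the 6 genes passed the limma threshold of an adjusted p of 0.05 between diabetic and wildtype liver, where 0.321% of all 1246 probe sets did (4 higher and 0 lower). Without adjustment, 0 of the 6 had a limma p under 0.05, against 2.97% of all probe sets, and the groups overlapped for all 6, where 7.87% of all probe sets had groups that did not overlap. The diabetic mean was lower for 3 genes (Has2, Hyal1 and Hyal2) and higher for 3 (Has1, Has3 and Cd44), though Has3 turned to -0.0018 under quantile normalization. The median difference was -0.0025 over the 6 genes and 0.0020 over all probe sets. At background shares this low, a count of 0 among 6 does not set these genes apart. In a limma fit blocked on the replicate number, 0 of the 6 were called, with adjusted p of 0.866 or more, and 0% of all probe sets. Without adjustment that fit gave 0 of the 6 a p under 0.05, against 4.33% of all probe sets.

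**Figure D2:**
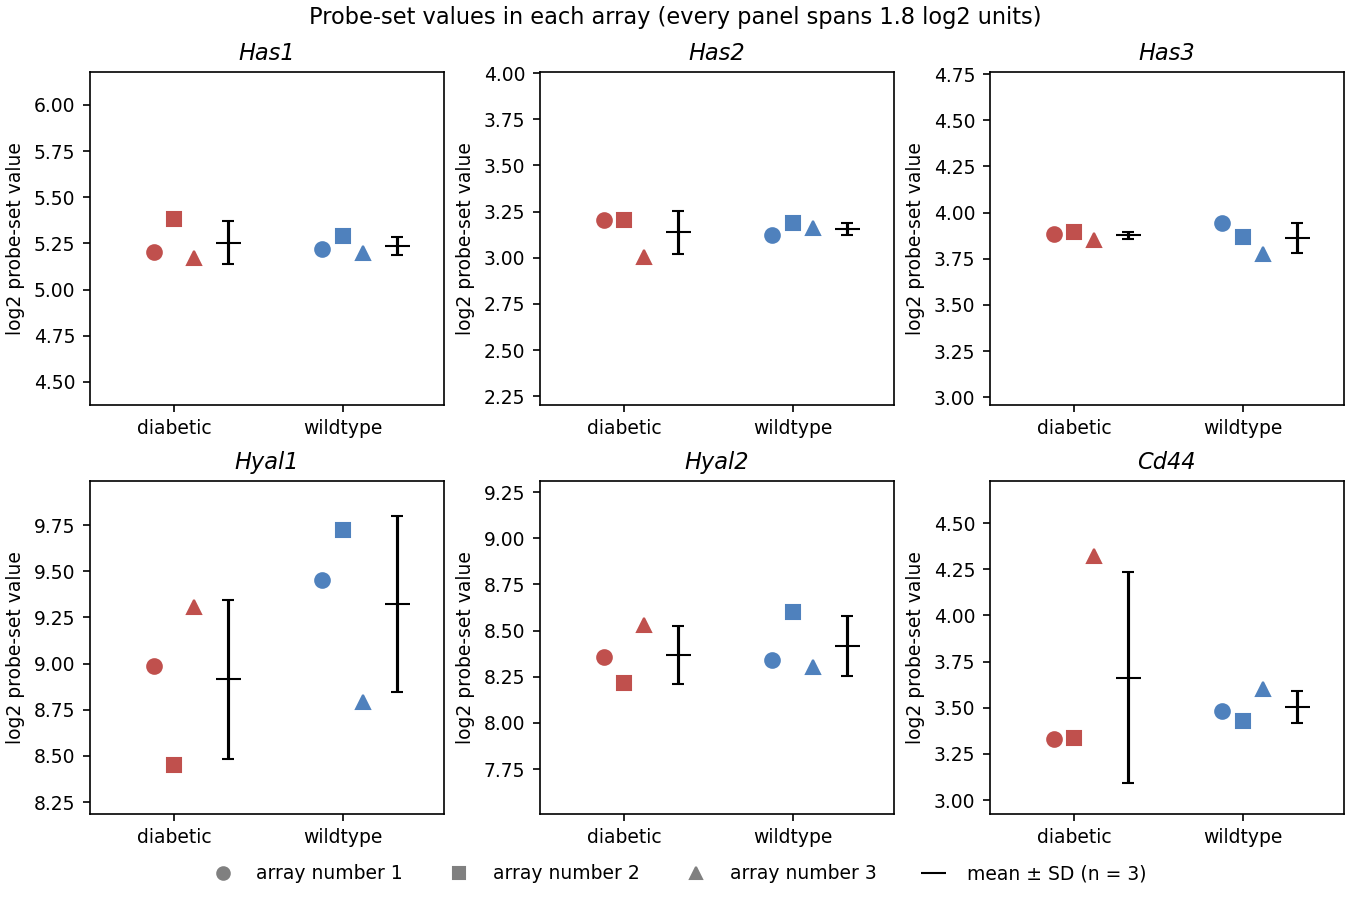
Log2 probe-set value (y axis) in each array for the 6 measured genes, diabetic arrays in red on the left and wildtype arrays in blue on the right, with marker shapes for array numbers 1 to 3 and the mean ± SD (n = 3) in black. Every panel spans the same height, so the spread of Hyal1 (8.45 to 9.72) and the single high Cd44 value (4.32 on diabetic 3) can be set against the flat Has genes.

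Has2 is the synthase that mouse embryos cannot do without and the main source of hyaluronan in many adult tissues. Its values were 3.20, 3.20 and 3.00 on diabetic arrays 1 to 3, against 3.12, 3.19 and 3.16 on wildtype arrays 1 to 3. The groups overlapped, and the wildtype values lay within the range of the diabetic ones. The difference was -0.020 with a limma 95% confidence interval of -0.23 to 0.19 (standard error, SE, 0.086; adjusted p = 0.990). Diabetic 3 was the lowest array, and without it the difference was 0.046.

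Has1, a synthase with weaker activity in cultured cells, had 5.21, 5.38 and 5.17 on the diabetic arrays, against 5.22, 5.29 and 5.20 on the wildtype arrays. The diabetic arrays held both the highest and the lowest value. The difference was 0.017 (SE 0.088, 95% interval -0.19 to 0.23; limma adjusted p = 0.990), or -0.049 without diabetic 2 and -0.0029 without wildtype 3. Has3, the synthase known for shorter chains, had 3.88, 3.89 and 3.85 on the diabetic arrays, against 3.94, 3.87 and 3.78 on the wildtype arrays. Here the wildtype arrays held both extremes, and the difference was 0.015 (SE 0.077, 95% interval -0.17 to 0.20; limma adjusted p = 0.990), or -0.028 without wildtype 3.

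For all 3 synthases the interval excluded a difference of 0.5 in either direction on this scale. A probe set near background can hide a difference, so for Has2 and Has3, in the dimmest 25%, a narrow interval bounds the measured value and not the transcript. Whether the Has1 probe set lay above background was not tested.

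**Figure D3:**
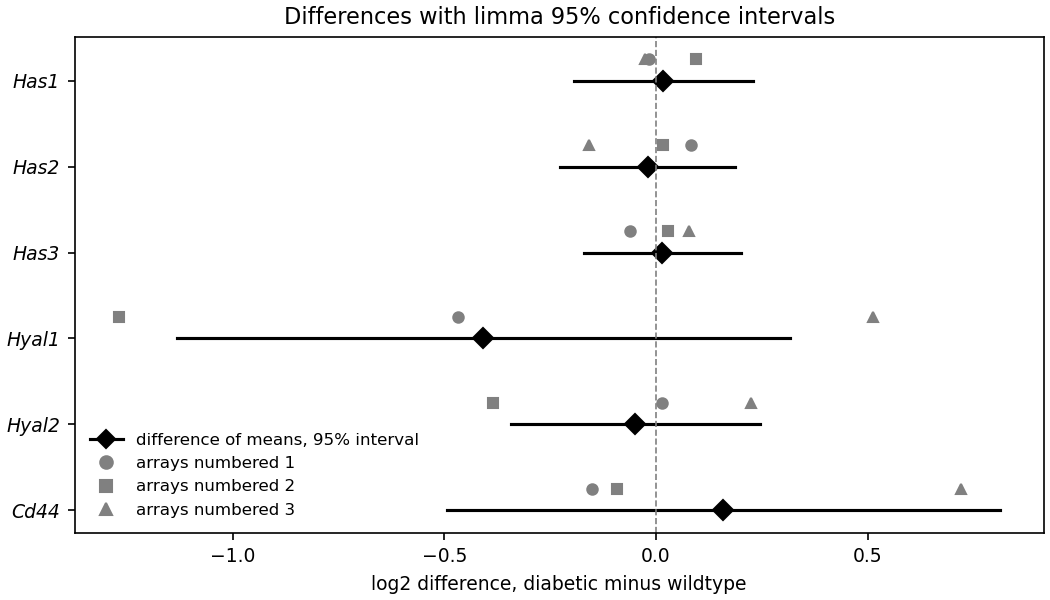
Log2 difference, diabetic minus wildtype (x axis), for each of the 6 genes: diamonds and bars give the difference of means with the limma 95% confidence interval, and grey markers the difference between the arrays that share a number. All 6 intervals include 0, the widest belonging to Hyal1 (-1.13 to 0.32) and Cd44 (-0.49 to 0.81).

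Hyal1, the lysosomal and plasma hyaluronidase, had the largest difference of the 6 genes, but its arrays spread widely within both groups. Its values were 8.99, 8.45 and 9.31 on diabetic arrays 1 to 3, against 9.45, 9.72 and 8.79 on wildtype arrays 1 to 3. Wildtype 3 lay below 2 of the diabetic arrays, so the groups overlapped. Means were 8.92 ± 0.43 in diabetic and 9.32 ± 0.48 in wildtype liver (n = 3 each, SD). The difference of -0.41 (SE 0.30) corresponds to a ratio of 0.754, with a 95% confidence interval of 0.456 to 1.24, and did not pass (limma adjusted p = 0.928).

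The Hyal1 difference depended on single arrays in size. It was -0.21 without wildtype 2, the array with the highest value, and -0.18 without diabetic 2, the array with the lowest. It was -0.67 without wildtype 3 and -0.60 without diabetic 3. Between arrays of the same number it was -0.47 for number 1, -1.27 for number 2 and 0.51 for number 3, so the numbers did not share a direction. The interval on the log2 scale, -1.13 to 0.32, still held a fall of 1, which the intervals of the other 5 genes did not.

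Hyal2, the hyaluronidase anchored at the cell surface, had 8.36, 8.22 and 8.53 on the diabetic arrays, against 8.34, 8.60 and 8.30 on the wildtype arrays. The groups overlapped over most of their range, the diabetic mean being 8.37 ± 0.16 and the wildtype mean 8.42 ± 0.16 (n = 3 each, SD). The difference was -0.050 (SE 0.12, 95% interval -0.34 to 0.24; limma adjusted p = 0.990), and it was 0.043 without wildtype 2 and 0.026 without diabetic 2. In a bright probe set this interval excluded a change of 0.5 in either direction. As with Hyal1, wildtype 2 was the highest array and diabetic 2 the lowest.

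By root mean square (RMS) difference of mean-centred log2 values over the 6 arrays, the 2 genes of 908 closest to Hyal1 were Zkscan3, a zinc finger protein, at 0.11, and Ganab, the catalytic subunit of glucosidase II in the endoplasmic reticulum, at 0.16. The median over the 908 genes was 0.44. Zkscan3 had 8.52, 8.16 and 8.68 on the diabetic arrays, against 8.87, 9.32 and 8.29 on the wildtype arrays. Ganab had 8.75, 8.53 and 8.97 on the diabetic arrays, against 9.10, 9.72 and 8.60 on the wildtype arrays. Both were highest on wildtype 2 and lowest on diabetic 2, as Hyal1 was, and closeness on these arrays was how they were chosen. Without wildtype 2, a choice made after seeing the data, Zkscan3 ranked 2 and Ganab 6 of 908 in closeness to Hyal1. Closest to Hyal2 were Rpn2, a subunit of the oligosaccharyltransferase complex, at 0.042, and Fut1, a fucosyltransferase, at 0.056. The median over all genes was 0.18, and without wildtype 2 Rpn2 and Fut1 ranked 5 and 15. The genes close to Hyal1 and Hyal2 were picked on all 6 arrays, so ranks on a part of those arrays are no separate support.

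**Figure D4:**
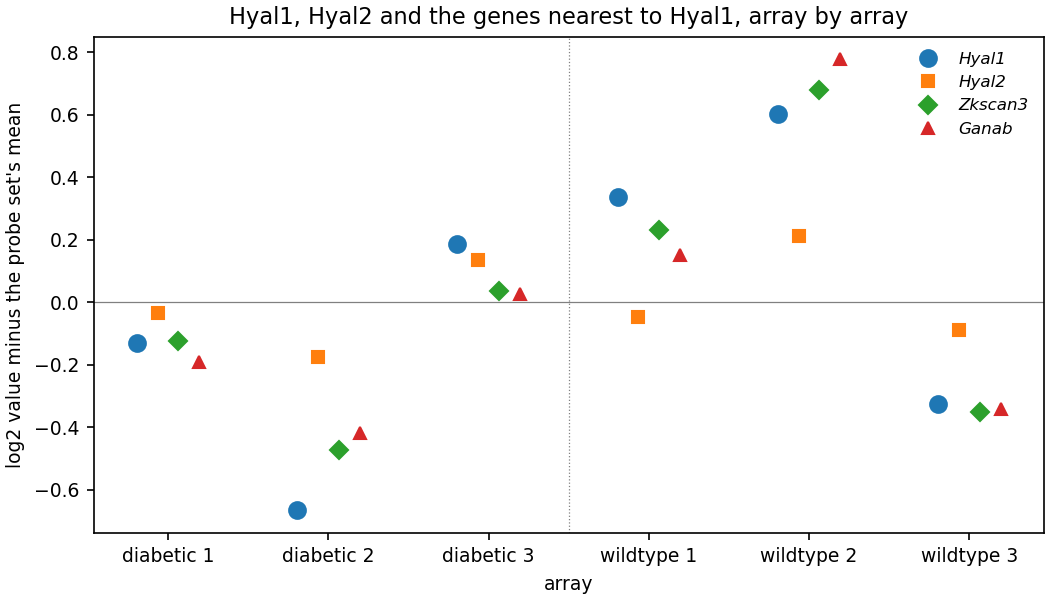
Log2 value minus the probe set's own mean over the 6 arrays (y axis) in each array (x axis, diabetic on the left) for Hyal1, Hyal2 and the genes closest to Hyal1, Zkscan3 and Ganab. All 4 are highest on wildtype 2 and lowest on diabetic 2, with Hyal2 moving over a smaller range. Zkscan3 and Ganab were chosen by their closeness to Hyal1 on these arrays.

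Cd44 had 3.33, 3.34 and 4.32 on diabetic arrays 1 to 3, against 3.48, 3.43 and 3.60 on wildtype arrays 1 to 3. Diabetic 3 was the single high array, 0.72 above the next one, and the other diabetic arrays lay below all 3 wildtype arrays. Means were 3.66 ± 0.57 in diabetic and 3.50 ± 0.088 in wildtype liver (n = 3 each, SD). The difference was 0.16 (SE 0.27, 95% interval -0.49 to 0.81; limma adjusted p = 0.987). Without diabetic 3 it turned to -0.17 (limma adjusted p = 0.964), and it was 0.33 without diabetic 1 and 0.32 without diabetic 2. The Cd44 probe set was designed on 1 of 6 curated transcripts that RefSeq lists for this alternatively spliced gene, and which of them its probes match was not tested.

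The genes closest to Cd44 across the arrays were Csf1r, the receptor for the macrophage growth factor CSF1, at an RMS difference of 0.14, and Lgals3, the galectin abundant in macrophages, at 0.15, against a median of 0.37 over 908 genes. Csf1r had 6.23, 6.28 and 7.50 on the diabetic arrays, against 6.44, 6.31 and 6.85 on the wildtype arrays. Lgals3 had 5.37, 5.56 and 6.05 on the diabetic arrays, against 5.47, 5.44 and 5.68 on the wildtype arrays. Both, like Cd44, were highest on diabetic 3 and next highest on wildtype 3, and closeness on these arrays was how they were chosen. The likeness rested on diabetic 3: without it, again chosen after seeing the data, Csf1r ranked 263 and Lgals3 48 of 908 in closeness to Cd44.

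Of 14 listed macrophage markers 7 were measured, and 5 of these were highest on diabetic 3. The macrophage gene Adgre1 had 3.81, 3.89 and 5.18 on the diabetic arrays, against 3.83, 3.81 and 4.32 on the wildtype arrays. Cd74, which chaperones MHC class II, had 6.71, 6.72 and 7.31 on the diabetic arrays, against 6.96, 7.08 and 7.94 on the wildtype arrays, so its highest array was wildtype 3. The difference was 0.31 for Adgre1, or -0.14 without diabetic 3, and -0.41 for Cd74, or -0.61 without diabetic 3 (limma adjusted p between 0.928 and 0.992). Summed on the linear scale, the 7 markers ran from 373 to 642 in diabetic and from 424 to 623 in wildtype liver, highest on diabetic 3 and next on wildtype 3, and the diabetic arrays other than diabetic 3 gave 373 and 405. None of the 7 was called, 3 had a higher and 4 a lower diabetic mean, and Adgre1, Siglec1 and Timd4 lay below the median probe set. Their part in the Cd44 values was not tested, and in whole liver fewer cells of a type and less RNA per cell cannot be told apart.

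**Figure D5:**
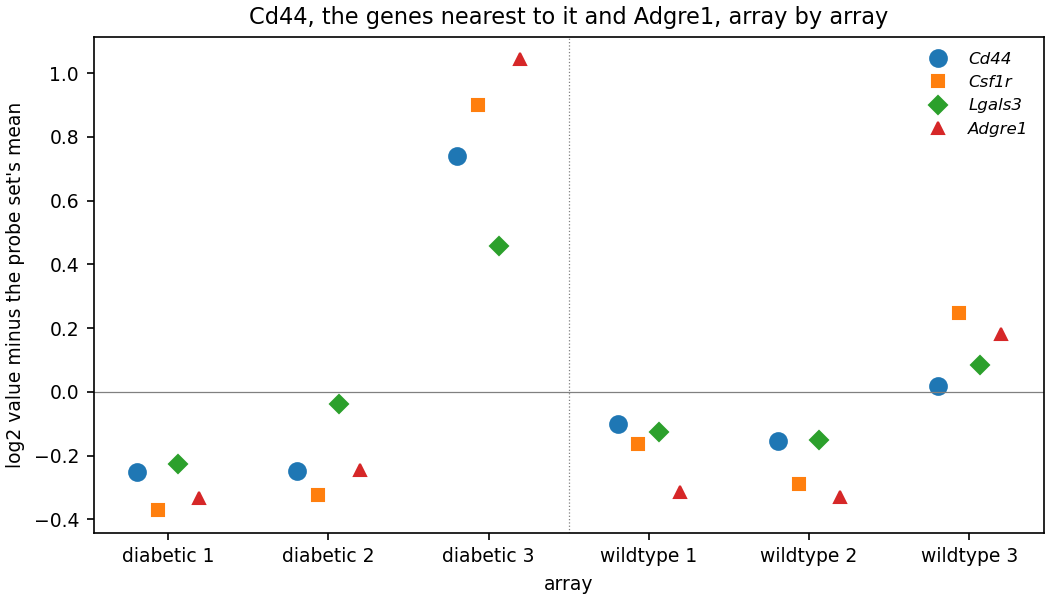
Log2 value minus the probe set's own mean over the 6 arrays (y axis) in each array (x axis, diabetic on the left) for Cd44, the genes closest to it, Csf1r and Lgals3, and the macrophage marker Adgre1. All 4 are highest on diabetic 3, where Cd44 reached 4.32, and next highest on wildtype 3. Csf1r and Lgals3 were chosen by their closeness to Cd44 on these arrays.

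Lymphocyte, endothelial, stellate cell and fibroblast markers held no calls. Lymphocyte markers (7 of 13 measured) summed to between 145 and 167 in diabetic and between 147 and 170 in wildtype liver. Endothelial markers (6 of 14) summed to between 466 and 702 in diabetic and between 506 and 740 in wildtype liver, and stellate cell and fibroblast markers (5 of 12) to between 282 and 391 in diabetic and between 276 and 540 in wildtype liver. The groups overlapped for each sum. Both the endothelial sum and the stellate cell and fibroblast sum were highest on wildtype 3 and next on diabetic 3. High sums on these arrays were thus not particular to macrophage markers, but a linear sum leans on its brightest gene. This was Clec4g for the endothelial and Dcn for the stellate cell and fibroblast markers. By single markers, 2 of 6 endothelial and 0 of 5 stellate cell and fibroblast markers were highest on diabetic 3, against 5 of 7 macrophage markers. The lymphocyte sum was highest on wildtype 3 and next on diabetic 2. Of the cholangiocyte markers, 1 of 7 was measured (Muc1), with a difference of 0.022 (limma adjusted p = 0.990). Of 7 measured hepatocyte markers 1 was called, Mbl2, a lectin secreted into plasma. It was higher in diabetic liver by 1.03 (limma adjusted p = 0.0412). No probe set, Mbl2 included, was called in the blocked fit, with trend and robust eBayes or in the unmoderated linear model. The same held with any 1 array but wildtype 3 left out. Of the 7, 4 had a higher and 3 a lower diabetic mean, with a median difference of 0.017. Igfals differed by -0.61 and Mbl1 by 0.27 (limma adjusted p = 0.928 for both). Igfbp1 had the largest difference, 2.74 (limma adjusted p = 0.928). It had 10.65, 8.90 and 11.52 on the diabetic arrays, against 6.26, 6.50 and 10.09 on the wildtype arrays. The sum of the 7 on the linear scale ran from 16259 to 18212 in diabetic and from 11802 to 14817 in wildtype liver, without overlap. It was highest on diabetic 3. This sum includes Mbl2, among the brightest of the 7, and Igfbp1, so it does not show that the markers were higher as a group. The part of this sum in the values of the hyaluronan genes was not tested.

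The synthases were nearest in pattern to genes below the median probe set that varied as little. Has1 was closest to Gal3st2, a galactose sulfotransferase, at an RMS difference of 0.020, and to Fgf15, at 0.030. Has2 was closest to Hes2, at 0.023, and to Galnt3, an enzyme that starts mucin-type O-glycans, at 0.039. Has3 was closest to Fgf7, at 0.027, and to Il17a, at 0.029. The synthases' own RMS about their means was 0.073 for Has1, 0.070 for Has2 and 0.050 for Has3, so these likenesses are between probe sets that hardly varied.

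Of 9 listed genes for the supply of the sugar nucleotides that Has enzymes consume, 8 were measured as RNA. The nucleotides themselves were not measured. Of the 8 genes 0 were called, 4 with a higher and 4 with a lower diabetic mean (median difference -0.0045, against 0.0020 over all probe sets). Ugp2, which makes UDP-glucose, had 9.75, 9.53 and 9.32 on the diabetic arrays, against 9.06, 8.58 and 8.66 on the wildtype arrays. The groups did not overlap, diabetic being the higher, as for 4.57% of all probe sets, and the difference of 0.77 did not pass (limma adjusted p = 0.619). Ugdh, which oxidises UDP-glucose to UDP-glucuronate, differed by 0.53, and Uap1l1, a relative of the enzyme that forms UDP-N-acetylglucosamine, by -0.19 (limma adjusted p = 0.928 and 0.942).

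Further breakdown of hyaluronan fragments was covered by 2 of 9 listed genes, neither called. Gusb, the lysosomal beta-glucuronidase, had 8.36, 8.08 and 8.26 on the diabetic arrays, against 8.36, 7.95 and 7.68 on the wildtype arrays, a difference of 0.24 (SE 0.18; limma adjusted p = 0.928). Hexa, a subunit of beta-hexosaminidase, differed by -0.0016 (SE 0.12; limma adjusted p = 0.995). For both genes the diabetic and wildtype values overlapped.

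Of 26 listed hyaluronan-binding genes other than Cd44 only the proteoglycans of the aggrecan family, 4 in number, were measured, with 0 called and 2 higher and 2 lower diabetic means. Bcan differed by 0.075, Acan by 0.047 and Ncan by -0.024 (limma adjusted p = 0.974, 0.990 and 0.990), and 1 of the 4 lay above the median probe set. The endothelial clearance receptor Stab2 was not analysed here. Among Cd44 ligands and partners 7 of 16 listed genes were measured and 0 called, 4 with a higher and 3 with a lower diabetic mean. Hgf, the hepatocyte growth factor, had 2.65, 2.67 and 2.58 on the diabetic arrays, against 2.50, 2.37 and 2.47 on the wildtype arrays. The groups did not overlap, diabetic being the higher, as for 4.57% of all probe sets. Hgf differed by 0.18, in a dim probe set at percentile 3.6 of level. Its receptor Met differed by 0.26, or -0.016 without diabetic 3, with 8.76, 8.48 and 9.44 on the diabetic arrays, against 8.48, 8.85 and 8.58 on the wildtype arrays (limma adjusted p = 0.928 for Hgf and 0.942 for Met).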

How the data were processed

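Per the submitters' processing notes, the authors made the deposited values with RMA, a method of background correction, between-array normalization and probe-set summary. Its version is not given in the sources used here. Values deposited were taken as log2 because they ran from 2.03 to 13.45. This normalization removes a change common to most probe sets. Of 1246 probe sets, 984 carried a RefSeq accession and 963 were named through the RefSeq table of GRCm38.p6. A gene with several probe sets was represented by the one with the highest mean. All probe sets were fitted with limma 3.58.1 (lmFit, eBayes) in R 4.3.3, diabetic minus wildtype, with Benjamini-Hochberg adjustment over all of them. The fit was tested on simulated data.

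Named were every measured gene of the set, up to 3 genes per list by smallest p, and the 2 genes nearest to each. Remaining list members are given as counts, apart from a few named for their level or the size of their difference. The genes and lists were chosen with earlier results of these data known. The motifs and the text's sums of markers were chosen after the values had been seen.

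The labels number the arrays 1 to 3 in either group. Deviations of same-numbered arrays from their group means correlated at 0.397, 0.138 and 0.162, all over 0.1, so the numbers were treated as pairs in an alternative fit. Further alternatives were a median shift, quantile normalization, leaving out the dimmest 25%, trend with robust eBayes, array weights, an unmoderated linear model, a threshold of 0.10 and leaving out each array.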

Additional observations from a re-analysis of the deposited data

How the results depend on the processing

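The count of called hyaluronan genes was 0 under every alternative run, and the replicate block, which cannot move a difference here, left it at 0 and changed no call among them. The count of all called probe sets was 4, and 0 with the replicate block, with trend and robust eBayes and in the unmoderated linear model; the cause was not tested. Leaving out 1 array gave between 0 and 1 calls, with fewer samples behind them. Quantile normalization gave -0.0018 for Has3. With 1 array left out, the differences ran from -0.17 to 0.33 for Cd44, from -0.049 to 0.059 for Has1, from -0.054 to 0.046 for Has2, from -0.028 to 0.055 for Has3, from -0.67 to -0.18 for Hyal1 and from -0.13 to 0.043 for Hyal2, so the sign of all but Hyal1 changed. No adjusted p of these genes fell below 0.784 in the limma fits. Leaving out the dimmest 25% removed Has2, Has3 and Cd44, which have no value there, and no other named probe set of these genes could be tried; 283 probe sets stayed unnamed, so others may exist among them. Signal over background limits these dim probe sets.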

Other observations

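Diabetic 3 lay over 0.5 above every other array for 19 of 1246 probe sets. With the lead of Cd44 itself, 0.72, as the threshold, there were 9 such probe sets, Cd44 being 1 of them by construction. The others, named after their values had been seen, were Cxcl13, Slc35e3, Igfbp1, Adgre1, Cxcl1, B3galt1, Lgals4 and Igfbp5. Cxcl13, a chemokine that attracts B cells, led by 1.30, with 4.17, 4.17 and 6.37 on diabetic arrays 1 to 3, against 4.27, 4.10 and 5.07 on wildtype arrays 1 to 3. Cxcl1, a neutrophil chemokine, had 5.23, 6.01 and 8.94 on the diabetic arrays, against 6.02, 5.50 and 8.13 on the wildtype arrays. For Cxcl13, Cxcl1 and Adgre1, as for Cd44, wildtype 3 was the next highest array. For the rest it was another array: diabetic 1 for Slc35e3 and Igfbp1, diabetic 2 for Igfbp5, wildtype 1 for B3galt1 and wildtype 2 for Lgals4.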
